A study of Homo sapiens with 24 samples.

Results

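The genes described here are 5 ligands of the epidermal growth factor (EGF) family, AREG, EREG, TGFA, HBEGF and BTC, 3 of their receptors, EGFR, ERBB2 and ERBB3, and 2 exchange factors that act downstream of such receptors, VAV2 and VAV3. They were taken by symbol, and all 10 were found among the 26475 gene symbols counted in each library. RNA was sequenced from HepG2, an established human hepatocellular carcinoma line, in 24 libraries that form 8 groups of 3. One group received the solvent DMSO, and 3 groups received an inhibitor of the bromodomain and extra-terminal (BET) proteins, which read acetylated histones, namely ABBV-075 at 50 nM, ABBV-744 at 50 nM or ABBV-744 at 500 nM. ABBV-075 binds both bromodomains of the BET proteins, and ABBV-744 is selective for the second. Another group received interferon gamma (IFNγ), and the last 3 groups received IFNγ with each of these inhibitor treatments. All groups are of the same cell line in the same medium. The study's methods describe a DMSO and an ABBV-075 group and read as 24 h for the former and 12 h for the latter. They do not say whether that DMSO group is the one used here. Where those times apply, time and treatment cannot be told apart in this comparison. The dose and time of IFNγ and the time of ABBV-744 are not given in the sources used here. The samples are described as triplicates, and where these share a culture, p-values measure only the spread between the 3 samples, which may be technical.

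EGF-family ligands are made as membrane-bound precursors and are shed by metalloproteases. AREG and EREG (amphiregulin and epiregulin), TGFA (transforming growth factor alpha), HBEGF (heparin-binding EGF-like growth factor) and BTC (betacellulin) bind EGFR, and some of them also ERBB4. The receptors act in pairs: ERBB2 has no known ligand, ERBB3 binds neuregulins and has little kinase activity of its own, and EGFR carries an active kinase. VAV2 and VAV3 are guanine nucleotide exchange factors that act once a receptor kinase has phosphorylated them. Hepatocytes are known to carry much EGFR and ERBB3, and AREG is known as a ligand induced in injured liver.

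AREG, EREG and VAV3 had the largest differences under ABBV-075, and EGFR had one of the smallest. No promoter window matched the annotated start of VAV3, TGFA, ERBB2, ERBB3 or VAV2, so none is shown for these genes. The 250 bases before the annotated starts of AREG, EREG and EGFR are shown, 5′ to 3′ on the strand of the gene, from RefSeq (GRCh38.p14). Capitals mark TATAAA, the letters of a core promoter box, and TGACGTCA, a cAMP response element. Both strands were also searched for TGACTCA, an AP-1 element, and for CACGTG, an E-box. The windows lie at chr4:74444886-74445135 on the plus strand for AREG, chr4:74364895-74365144 on the plus strand for EREG and chr7:55018767-55019016 on the plus strand for EGFR.
AREG: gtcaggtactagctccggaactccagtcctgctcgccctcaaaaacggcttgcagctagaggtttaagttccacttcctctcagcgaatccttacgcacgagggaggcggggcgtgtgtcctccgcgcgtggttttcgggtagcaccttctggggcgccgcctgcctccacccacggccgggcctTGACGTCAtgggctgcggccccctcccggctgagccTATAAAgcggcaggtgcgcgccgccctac
EREG: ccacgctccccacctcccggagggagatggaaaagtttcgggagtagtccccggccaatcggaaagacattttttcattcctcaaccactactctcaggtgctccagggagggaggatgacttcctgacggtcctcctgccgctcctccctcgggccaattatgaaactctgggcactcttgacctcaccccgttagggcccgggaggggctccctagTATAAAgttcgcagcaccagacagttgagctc
EGFR: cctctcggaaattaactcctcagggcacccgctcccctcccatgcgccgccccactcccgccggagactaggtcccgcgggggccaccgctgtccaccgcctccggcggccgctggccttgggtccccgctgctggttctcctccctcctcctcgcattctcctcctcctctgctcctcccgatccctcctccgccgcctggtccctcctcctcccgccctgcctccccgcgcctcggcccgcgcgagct

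The windows of AREG and EREG each held TATAAA, with its first letter 29 and 32 bases before the start, and 10.7% of the 35116 windows of the same length held it. TGACGTCA was found in the AREG window at 65 bases before the start, against 1.65% of all windows. None of the 4 motifs was found in the EGFR window. Its base composition was 73.6% G and C, against 76.4% for HBEGF and a median of 58.0% over all windows. TGACTCA stood in 4.2% and CACGTG in 6.34% of all windows, and in none of these 3. The windows of HBEGF and BTC, which are not shown, held none of the 4 motifs. A match describes the letters only and is not a bound site. Whether any of these motifs goes with the response to an inhibitor was not tested. AREG (chr4:74445136-74455005) and EREG (chr4:74365145-74388749) lie in the same orientation with 56386 bases between them, and BTC (chr4:74744759-74794523) lies 289753 bases beyond AREG on the opposite strand.

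Each library held between 2978982 and 4304103 raw reads counted on the strand of a gene. All 8 hepatocyte markers were counted in every library, from 32 counts at the lowest for FOXA2 to 56485 at the highest for APOB. Of markers of other cell types, PTPRC and CD3E (leukocytes) and COL3A1 (fibroblasts) had 0 counts in all 24 libraries, COL1A1 (fibroblasts) and CDH5 (endothelium) at most 2 counts in any, and PECAM1 (endothelium) at most 5. HEXIM1, known to rise under BET inhibition, rose from 53.9 ± 3.15 to 145 ± 7.46 CPM (read counts scaled to library size) under ABBV-075 and to 89.5 ± 4.88 CPM under ABBV-744 500 nM. With ABBV-744 50 nM it did not pass the adjusted test used below against DMSO (log2 fold change 0.29, unadjusted p under 0.05). Nor did it pass when that dose was added to IFNγ (0.092 against IFNγ). PSMB9, a proteasome subunit known to be induced by IFNγ, rose from 6.81 ± 1.09 to 153 ± 13.2 CPM under IFNγ. CPM were scaled with TMM (trimmed mean of M values), and every value after ± in CPM is an SD with n = 3. Libraries also differed with the base composition of genes: for the ABBV-744 50 nM by IFNγ interaction, defined below, the median log2 value was 0.87 for genes with up to 43.2% G and C and -0.58 for those above 53%. Each result was therefore also computed with a correction for GC content, and that value is given wherever it changed a call. The part of base composition in the results was not tested further.

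In DMSO the members covered a wide range of levels. Per kb of exon, ERBB3 was highest at 21.7 ± 1.03 CPM per kb, followed by VAV2 at 11.7 ± 1.36, ERBB2 at 10.1 ± 0.274 and TGFA at 9.85 ± 0.173. AREG stood at 4.602 ± 1.495 CPM per kb and VAV3 at 3.58 ± 0.806, and these neighbours did not differ beyond their spread. EGFR was at 1.15 ± 0.188, EREG at 0.649 ± 0.165 and HBEGF at 0.420 ± 0.262 CPM per kb. BTC had 0 counts in all 24 libraries, which allows at most 3 counts in 85714619, or 0.0350 CPM. TGFA was thus the most abundant of the ligands. With the length of the longest transcript in place of all exons, ERBB2 moved above VAV2, at 21.1 against 13.1 CPM per kb.

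**Figure D1:**
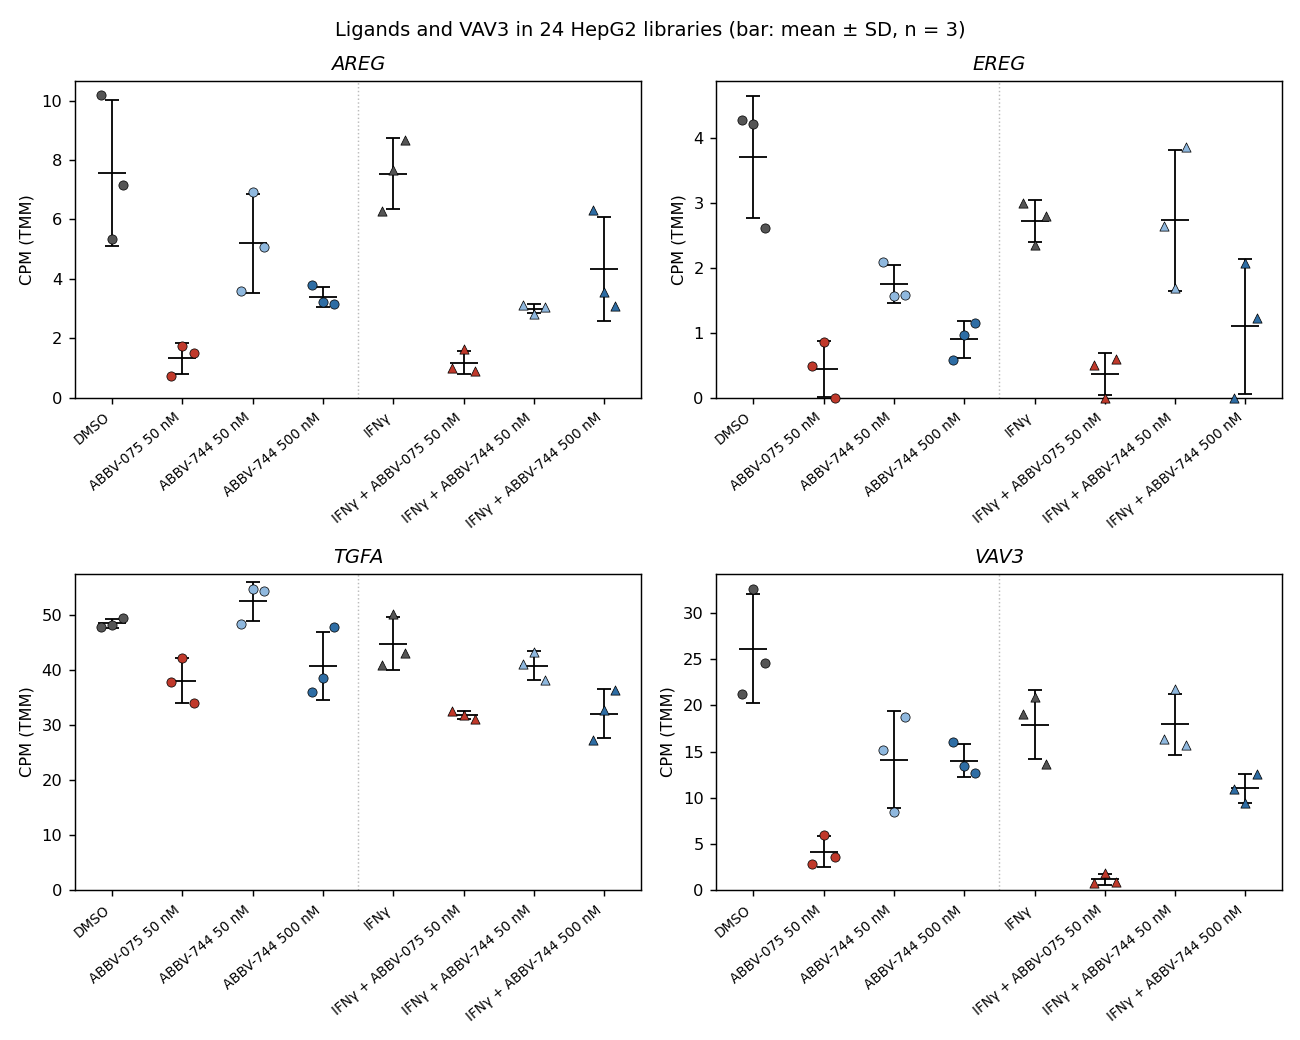
Each panel plots the CPM (y axis, TMM-scaled, from 0) of a gene in the 24 libraries, by group on the x axis. Points are libraries, circles without and triangles with IFNγ, and the bar is the mean ± SD of 3. AREG, EREG and VAV3 were lowest in both ABBV-075 groups, and TGFA had group means between 31.8 and 52.4 CPM.

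Of the 10 members, 8 passed the filter on low counts in ABBV-075 against DMSO, all except HBEGF and BTC. By edgeR's quasi-likelihood test 6 of these 8 were lower and 0 higher at an adjusted p of at most 0.05, while 19.6% of all 11244 genes tested were lower and 19.8% higher. At the study's thresholds, which also ask for a log2 fold change of at least 1.5, AREG, EREG and VAV3 were lower, against 3.19% of all genes. The study itself names these genes among those that its BET inhibitors reduced. Members were chosen with earlier results of these data known, so shares of members, here and below, are descriptions and not a test. For ABBV-744 50 nM against DMSO 1 of 7 tested members was lower, against 10.1% of genes, and 1 was higher, against 8.81%. For ABBV-744 500 nM against DMSO 2 of 7 were lower, against 7.80% of genes, and none was higher, against 7.48%. The median log2 fold change of the tested members was -0.399 in ABBV-075, 0.127 in ABBV-744 50 nM and -0.0537 in ABBV-744 500 nM, and that of all genes lay between 0.00056 and 0.026. EREG passed the filter only with a group in which it was high, so these counts and medians describe the tested members only. In RNA from a whole culture, fewer cells of a kind and less RNA per cell cannot be told apart.

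AREG was counted 38, 24 and 30 times in the DMSO libraries and 3, 6 and 5 times under ABBV-075, without overlap. Its level was 7.56 ± 2.45 CPM in DMSO and 1.32 ± 0.525 CPM in ABBV-075, a log2 fold change of -2.53 (SE 0.402, adjusted p = 0.000528). Under ABBV-744 50 nM it was counted 12, 22 and 16 times, at 5.19 ± 1.67 CPM, which overlaps DMSO and did not pass the test (log2 fold change -0.51, 95% interval -1.14 to 0.12). At 500 nM the counts were 13, 10 and 11, at 3.38 ± 0.345 CPM, with a log2 fold change of -1.12 (SE 0.321, adjusted p = 0.0158) and no overlap with DMSO. The call at 500 nM was lost without DMSO replicate 1 (-0.871, adjusted p = 0.105), without ABBV-744 500 nM replicate 3 (-1.08, adjusted p = 0.0702) and with DESeq2 (-1.14, adjusted p = 0.0835).

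With IFNγ, AREG was again lowest with ABBV-075, and the means of the ABBV-744 doses stood in the opposite order to those without IFNγ, with large spread at 500 nM. IFNγ alone left 23, 26 and 31 counts (7.54 ± 1.20 CPM), which overlaps DMSO. Adding ABBV-075 gave 4, 6 and 3 counts (1.18 ± 0.397 CPM), a log2 fold change of -2.65 (SE 0.384, adjusted p = 2.64e-07) against IFNγ. Adding ABBV-744 gave 13, 10 and 11 counts at 50 nM (3.00 ± 0.158 CPM) and 19, 12 and 10 at 500 nM (4.32 ± 1.75 CPM), and the difference between these doses with IFNγ was not tested. The lower dose had a log2 fold change of -1.29 (SE 0.303, adjusted p = 0.000572), and the higher dose one of -0.83 (SE 0.308, adjusted p = 0.0279). Both doses passed, and the values at 500 nM spread more, since replicate 1 reached 6.33 CPM and the others 3.08 and 3.56. The call at 500 nM was lost without IFNγ replicate 2 or 3 (adjusted p = 0.0565 and 0.102), without IFNγ + ABBV-744 500 nM replicate 2 or 3 (adjusted p = 0.119 and 0.143) and with DESeq2 (adjusted p = 0.155). Across the 8 groups AREG ran from DMSO at the top to IFNγ + ABBV-075 at the bottom, over a 6.42-fold range of means. Both ABBV-075 groups lay below every other group without overlap, and overlapped each other.

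EREG, the neighbour of AREG, was counted 16, 19 and 11 times in DMSO and 2, 3 and 0 times in ABBV-075. The log2 fold change was -2.96 (SE 0.568, adjusted p = 0.0017). Because these counts are so low, the ratio of the summed counts is more direct: EREG was 8.11-fold higher in DMSO, with an exact 95% counting interval of 3.23 to 26.1. ABBV-744 gave 7, 5 and 5 counts at 50 nM and 2, 3 and 4 at 500 nM, so that DMSO was 2.11-fold (1.19 to 3.92) and 4.13-fold (2.0 to 9.59) higher. These intervals cover counting error only. The filter on low counts removed EREG from both ABBV-744 comparisons. When the filter was dropped, EREG had a log2 fold change of -1.06 (SE 0.452, adjusted p = 0.103) at 50 nM and of -2.0 (SE 0.526, adjusted p = 0.00308) at 500 nM.

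In the IFNγ groups EREG had 11, 8 and 10 counts with IFNγ alone and 2, 0 and 2 with ABBV-075 added, a 7.52-fold ratio (2.64 to 29.4). With ABBV-744 50 nM added it had 11, 6 and 14 counts, a ratio of 0.995 (0.579 to 1.71), and with 500 nM 0, 7 and 4 counts, a ratio of 2.39 (1.16 to 5.30). At 50 nM the libraries overlapped those of IFNγ, and at 500 nM the highest, 2.08 CPM, was under the lowest of IFNγ, 2.36 CPM. With the filter dropped, EREG passed against IFNγ with ABBV-075 (log2 fold change -2.79, SE 0.699, adjusted p = 0.000294) and not with ABBV-744 500 nM (-1.23, SE 0.555, adjusted p = 0.0779). For IFNγ against DMSO the 95% interval of the log2 fold change was -0.519 to 0.547 for AREG and -1.19 to 0.314 for EREG.

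TGFA, the most abundant ligand, had smaller differences. Its DMSO counts of 178, 217 and 207 (48.4 ± 0.852 CPM) fell to 157, 147 and 113 (38.0 ± 4.12 CPM) under ABBV-075, and the groups did not overlap. The log2 fold change of -0.37 (SE 0.138) had an adjusted p of 0.0486. Leaving out any of the 6 libraries ended this call (adjusted p from 0.0611 without ABBV-075 replicate 3 to 0.143 without DMSO replicate 3), as did 5 of the 9 other alternatives, DESeq2 among them (adjusted p = 0.136). Neither ABBV-744 dose passed the test against DMSO. With IFNγ the TGFA counts of 150, 170 and 154 (44.7 ± 4.85 CPM) became 131, 117 and 103 with ABBV-075 (31.8 ± 0.764 CPM, log2 fold change -0.50, SE 0.137, adjusted p = 0.00221). With ABBV-744 500 nM they were 82, 110 and 118 (32.1 ± 4.52 CPM, log2 fold change -0.49, SE 0.142, adjusted p = 0.00553). Both of these calls held without each library in turn. ABBV-744 50 nM left 170, 153 and 138 counts, which overlapped IFNγ (log2 fold change -0.11, 95% interval -0.36 to 0.138).

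HBEGF had between 0 and 8 counts in every library and was removed by the filter in all comparisons. Its group sums ran from 8 counts in IFNγ + ABBV-744 500 nM to 20 in ABBV-744 500 nM, and all neighbours in the order of its group means overlapped. Without the filter its log2 fold change in ABBV-075 against DMSO was 0.067 (SE 0.646, adjusted p = 0.962), and smaller differences than this error allows were not detectable at this depth. BTC, EPGN, NRG2, NRG3, NRG4 and ERBB4 had 0 counts in all 24 libraries, and EGF and NRG1 had at most 1 count in any. Epigen, EGF and the neuregulins are the other ligands of these receptors, and ERBB4 is their remaining receptor.

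**Figure D2:**
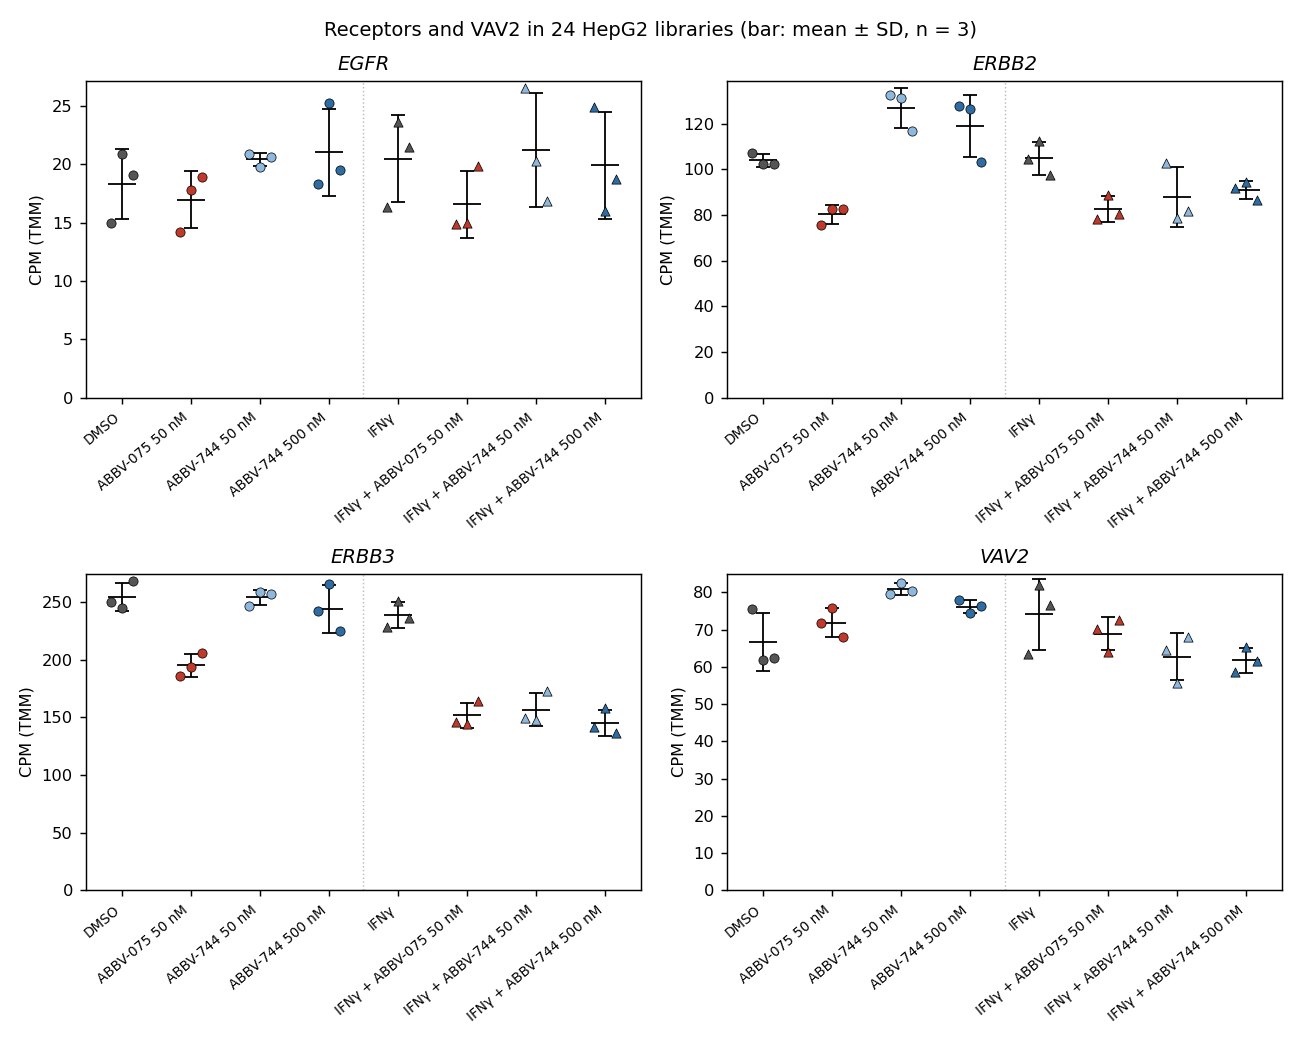
Each panel plots the CPM (y axis, TMM-scaled, from 0) of a receptor gene or VAV2 in the 24 libraries, by group on the x axis. Points are libraries, circles without and triangles with IFNγ, and the bar is the mean ± SD of 3. ERBB3 was lower in ABBV-075 and in all 3 groups with IFNγ and an inhibitor, while EGFR overlapped between all neighbouring groups.

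EGFR, the receptor that binds all 5 ligands, did not pass the test in any comparison. It was counted 56, 94 and 80 times in DMSO and 59, 62 and 63 times in ABBV-075, at 18.3 ± 3.00 and 17.0 ± 2.46 CPM. The log2 fold change was -0.14 with a 95% interval of -0.568 to 0.281. Over the 8 groups its means lay between 16.6 and 21.2 CPM, a 1.28-fold range, and both ABBV-075 groups had the lowest means. EGFR-AS1, a gene on the opposite strand that overlaps EGFR and was looked at after its values were seen, had 24, 38 and 28 counts in DMSO and 15, 10 and 12 in ABBV-075. Its log2 fold change was -1.11 (SE 0.275, adjusted p = 0.00721) without IFNγ and -1.36 (SE 0.307, adjusted p = 0.000253) with it. The libraries kept strand, and over the 24 libraries EGFR had 1653 counts on its own strand and 52 on the other.

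ERBB2, the receptor with no ligand of its own, was counted 400, 461 and 429 times in DMSO (104 ± 2.83 CPM) and 313, 288 and 275 times in ABBV-075 (80.3 ± 4.15 CPM), without overlap. The log2 fold change was -0.395 (SE 0.116, adjusted p = 0.0173). It was -0.219 with the GC correction (adjusted p = 0.0637), and the call was also lost without DMSO replicate 1, 2 or 3 (adjusted p = 0.0798, 0.062 and 0.064) and without ABBV-075 replicate 2 (adjusted p = 0.0529). Under ABBV-744 50 nM ERBB2 was higher, with 444, 418 and 368 counts (127 ± 8.67 CPM) and a log2 fold change of 0.30 (SE 0.1, adjusted p = 0.0357). This was 0.0978 with the GC correction (adjusted p = 0.492) and did not pass without DMSO replicate 1, 2 or 3 (adjusted p = 0.0675, 0.142 and 0.136) or ABBV-744 50 nM replicate 1 (adjusted p = 0.0599), nor with library size only (0.197, adjusted p = 0.134) or DESeq2 (0.295, adjusted p = 0.0626). With IFNγ and ABBV-075 it was lower than with IFNγ by a log2 fold change of -0.35 (SE 0.107, adjusted p = 0.00553), and by -0.109 with the GC correction (adjusted p = 0.294). The direction of ERBB2 under ABBV-075 was the same in each of these fits, and its size was not.

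ERBB3, the neuregulin receptor and the most abundant member, was counted 931, 1104 and 1123 times in DMSO (254 ± 12 CPM) and 771, 675 and 683 times in ABBV-075 (195 ± 9.75 CPM). The groups did not overlap, and the log2 fold change was -0.404 (SE 0.106, adjusted p = 0.0102), or -0.251 with the GC correction (adjusted p = 0.0196). It was lost only without DMSO replicate 3 (-0.363, adjusted p = 0.0676). ABBV-744 alone left ERBB3 at 254 ± 6.74 CPM at 50 nM and 244 ± 20.4 CPM at 500 nM. Without the GC correction the 95% intervals of the log2 fold change, -0.173 to 0.198 and -0.238 to 0.13, leave out a fall of -0.404. The fall with ABBV-075 has an interval of its own, -0.634 to -0.174, which overlaps that of ABBV-744 500 nM. These 2 groups were not tested against each other. With the correction the log2 fold changes were -0.127 (SE 0.0713, adjusted p = 0.282) at 50 nM and -0.148 (SE 0.0676, adjusted p = 0.131) at 500 nM. Those fits do not leave out the corrected fall with ABBV-075, -0.251. With IFNγ, every inhibitor group was below IFNγ alone (239 ± 11.2 CPM) without overlap. The level was 152 ± 11.2 CPM with ABBV-075 (log2 fold change -0.66, SE 0.0931, adjusted p = 1.48e-07), 157 ± 14.2 CPM with ABBV-744 50 nM (-0.59, SE 0.0847, adjusted p = 5.9e-07) and 145 ± 11.5 CPM with 500 nM (-0.73, SE 0.0931, adjusted p = 1.33e-07). These 3 calls held in every alternative and without each library in turn, and with the GC correction the log2 fold changes were -0.388, -0.312 and -0.45.

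VAV3 had the largest range of any member, 22.1-fold between its highest and lowest group mean. It was counted 79, 147 and 103 times in DMSO (26.1 ± 5.89 CPM) and 12, 21 and 12 times in ABBV-075 (4.18 ± 1.64 CPM). The log2 fold change was -2.68 (SE 0.277, adjusted p = 2.85e-05), and the groups lay far apart. Under ABBV-744 it was counted 51, 27 and 59 times at 50 nM (14.1 ± 5.21 CPM) and 55, 42 and 44 times at 500 nM (14.03 ± 1.74 CPM), below every DMSO library at both doses. The log2 fold changes were -0.88 (SE 0.213, adjusted p = 0.00571) and -0.90 (SE 0.186, adjusted p = 0.00113). The call at 50 nM was lost without DMSO replicate 2, the highest DMSO library (-0.68, adjusted p = 0.079), and that at 500 nM held without each library.

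IFNγ alone gave 70, 71 and 49 counts of VAV3 (17.9 ± 3.77 CPM), below every DMSO library, with a log2 fold change of -0.56 (SE 0.174) that did not pass the test (adjusted p = 0.0686). It passed without DMSO replicate 1 (-0.681, adjusted p = 0.0345), without IFNγ replicate 2 (-0.68, adjusted p = 0.0483), with library size alone as the scale (-0.624, adjusted p = 0.0337) and without the filter (-0.562, adjusted p = 0.0244). With ABBV-075 added, 3, 7 and 3 counts were left (1.19 ± 0.628 CPM), a log2 fold change of -3.89 (SE 0.334, adjusted p = 1.7e-12). ABBV-744 50 nM with IFNγ left 68, 77 and 57 counts (18.0 ± 3.30 CPM), which overlapped IFNγ, with a log2 fold change of 0.02 and a 95% interval of -0.358 to 0.399. At 500 nM it left 33, 32 and 41 counts (11.03 ± 1.56 CPM), a log2 fold change of -0.71 (SE 0.213, adjusted p = 0.00676). The lowest group of VAV3, IFNγ + ABBV-075, did not overlap the next, ABBV-075 alone, at 1.90 CPM against 2.90 CPM for their nearest libraries. VAV2, the relative of VAV3 with the same kind of activity, was counted between 176 and 298 times in every library, had a 1.31-fold range of means and passed in none of the comparisons between groups. In ABBV-075 against DMSO its log2 fold change was 0.088, with a 95% interval of -0.197 to 0.374. VAV1, the other gene of the family, had 0 counts in all 24 libraries.

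**Figure D3:**
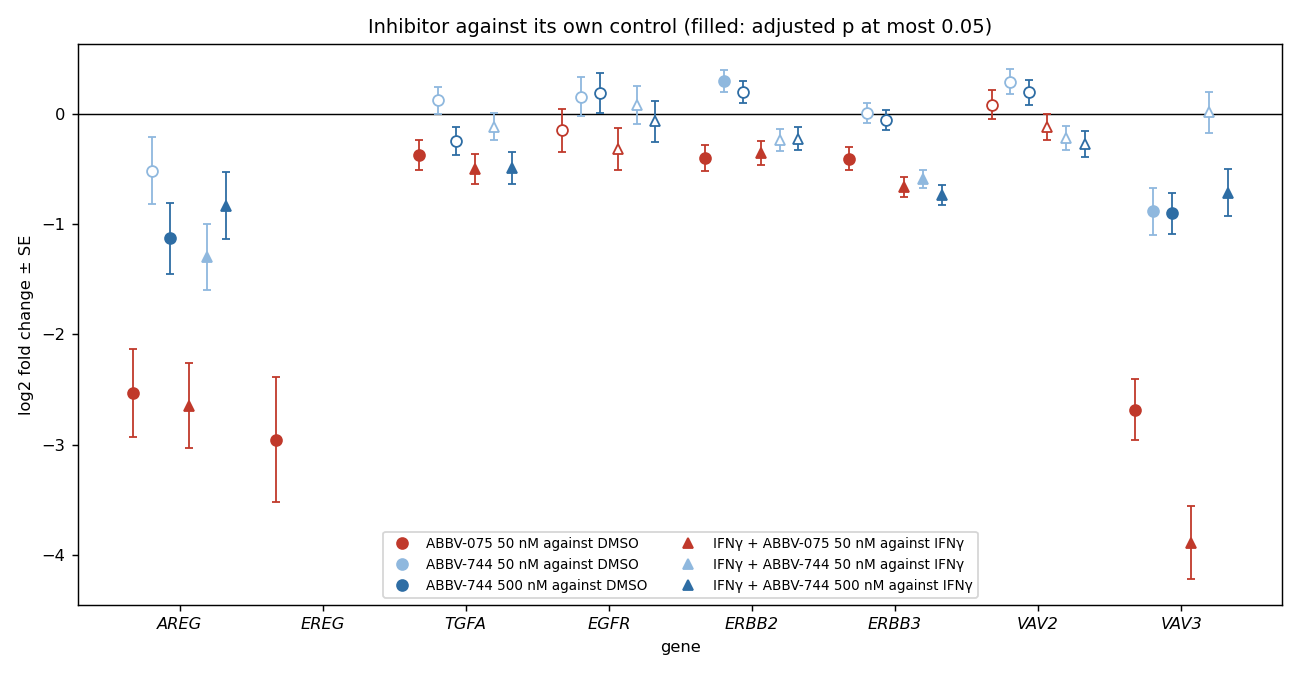
The y axis gives the log2 fold change ± SE of each inhibitor group against its own control, DMSO for circles and IFNγ for triangles, with the genes on the x axis and colours for the inhibitor and dose. Filled symbols passed an adjusted p of 0.05 by edgeR's quasi-likelihood test. AREG and VAV3 lay between -2.5 and -3.9 with ABBV-075 and no lower than -1.3 with ABBV-744, and EREG was tested only in ABBV-075 against DMSO.

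The groups with IFNγ and an inhibitor were set against IFNγ as follows. With ABBV-075, 5 of 7 tested members were lower (AREG, TGFA, ERBB2, ERBB3 and VAV3) and none was higher, against 28.4% lower and 28.2% higher of all genes, and AREG and VAV3 passed the study's thresholds, against 3.75% of genes. With ABBV-744 50 nM, AREG and ERBB3 were lower, against 24.3% of genes. With 500 nM, AREG, TGFA, ERBB3 and VAV3 were lower, against 22.8%. IFNγ against DMSO called 0 of 8 tested members by edgeR, against 0.695% lower and 2.76% higher of all genes. At an unadjusted p under 0.05 there was 1, VAV3, and DESeq2 called 0.

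Both inhibitors were given at 50 nM, which allows a comparison at that dose, in 2 pairs of groups with 7 tested members each and p-values adjusted over all genes. Because the time of ABBV-744 is not known, time and compound cannot be told apart here. Without IFNγ, 5 members were lower with ABBV-075 than with ABBV-744, against 19.4% of genes, and AREG and VAV3 passed the study's thresholds, against 1.63%. The log2 difference was -1.99 for AREG (SE 0.428, adjusted p = 0.00543) and -1.78 for VAV3 (SE 0.357, adjusted p = 0.00416), and both held without each library in turn. It was -0.67 for ERBB2 (SE 0.121, adjusted p = 0.00286), which also held without each library and was -0.302 with the GC correction (adjusted p = 0.034). ERBB3 (-0.392, adjusted p = 0.0153) lost its call with the GC correction (-0.116, adjusted p = 0.315) and without ABBV-075 replicate 2 or ABBV-744 replicate 2 or 3 (adjusted p = 0.0702, 0.0564 and 0.0672). TGFA (-0.473, adjusted p = 0.0282) lost it with library size only (-0.402, adjusted p = 0.0604), without ABBV-075 replicate 1 or 2 (adjusted p = 0.0644 and 0.0578), without ABBV-744 replicate 2 or 3 (adjusted p = 0.0873 and 0.0931) and with DESeq2 (adjusted p = 0.0811). For EGFR and VAV2 the 95% intervals of the difference were -0.682 to 0.117 and -0.453 to 0.0933.

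With IFNγ present, VAV3 and AREG were lower with ABBV-075 than with ABBV-744 at 50 nM, 2 of 7 tested members against 17.0% of genes. None was higher, and VAV3 alone passed the study's thresholds for a lower level, against 1.13%. VAV3 was lower with ABBV-075 by a log2 difference of -3.84 (SE 0.323, adjusted p = 5.43e-13), and the groups lay far apart, at 1.19 ± 0.628 and 18.0 ± 3.30 CPM. AREG differed by -1.28 (SE 0.464, adjusted p = 0.029). The AREG call held without IFNγ + ABBV-075 replicate 2 and was lost by a narrow margin without IFNγ + ABBV-744 replicate 2 (adjusted p = 0.05002), while leaving out IFNγ + ABBV-075 replicate 1 or 3 or IFNγ + ABBV-744 replicate 1 or 3 gave adjusted p of 0.0915, 0.102, 0.0775 and 0.0725. It was also lost with DESeq2 (adjusted p = 0.177) and without the filter (adjusted p = 0.0526). For ERBB3 and ERBB2 the 95% intervals of the difference were -0.183 to 0.186 and -0.256 to 0.171. The filter removed EREG, which had 2, 0 and 2 counts with ABBV-075 and 11, 6 and 14 with ABBV-744 50 nM. When the filter was dropped, EREG was lower with ABBV-075 (-2.76, SE 0.692, adjusted p = 0.000652). In the same fit of the pair without IFNγ, EREG did not pass (-1.86, SE 0.784, adjusted p = 0.0761).

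Between the doses of ABBV-744, 0 of 7 tested members differed by edgeR, against 0.0274% of all genes lower. At an unadjusted p under 0.05 there was 1 member, TGFA (log2 fold change -0.37, SE 0.146, adjusted p = 0.775), and DESeq2 called 0. The 95% interval for 500 nM against 50 nM was -0.527 to 0.5 for VAV3 and -1.35 to 0.128 for AREG, so a 2-fold fall of AREG between the doses lies inside its interval and one of VAV3 does not.

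An interaction asks whether the log2 response to an inhibitor differed between cells with and without IFNγ. For ABBV-075 it passed for 0 of 8 tested members by edgeR, against 0.0173% of genes lower, with 1 at an unadjusted p under 0.05 and 0 by DESeq2. That 1 was VAV3, with -1.23 (SE 0.529, 95% interval -2.33 to -0.122, adjusted p = 0.717): its fall was 6.42-fold without and 14.8-fold with IFNγ, and the counts that remained were few in both. For ABBV-744 50 nM, 3 members had a lower interaction, against 26.5% of genes, and 1 a higher, against 25.0%. ERBB2 (-0.56, SE 0.144, adjusted p = 0.00192), ERBB3 (-0.63, SE 0.118, adjusted p = 7.1e-05) and VAV2 (-0.54, SE 0.161, adjusted p = 0.0062) were below 0 and VAV3 above it (0.87, SE 0.307, adjusted p = 0.0187). The median of all genes was -0.14 with TMM and 0.04 with library size alone, so these values are read against that shift.

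With the GC correction the same interactions were 0.00494 for ERBB2 (adjusted p = 0.986), -0.192 for ERBB3 (adjusted p = 0.202), 0.0326 for VAV2 (adjusted p = 0.907) and 0.622 for VAV3 (adjusted p = 0.112). None of these 4 then passed, and TGFA did (-0.429, adjusted p = 0.0427). With library size only, VAV2 did not pass either (-0.354, adjusted p = 0.0717). The VAV3 interaction also lost its call without DMSO replicate 2, ABBV-744 50 nM replicate 2, IFNγ replicate 3 or IFNγ + ABBV-744 50 nM replicate 2 (adjusted p = 0.0819, 0.0655, 0.0624 and 0.0596). For ABBV-744 500 nM, 3 members had a lower interaction, against 15.0% of genes: ERBB2 (-0.40, adjusted p = 0.0291), ERBB3 (-0.66, SE 0.125, adjusted p = 0.000133) and VAV2 (-0.45, adjusted p = 0.029). ERBB3 passed with the GC correction (-0.309, adjusted p = 0.0309) and without each library in turn. ERBB2 and VAV2 passed neither with the GC correction (adjusted p = 0.961 and 0.78) nor with DESeq2 (adjusted p = 0.0524 and 0.0571) or library size only (adjusted p = 0.105 and 0.0896). Both also lost their call without DMSO replicate 2 or 3, ABBV-744 500 nM replicate 1 or IFNγ replicate 2, with adjusted p up to 0.109 for ERBB2 and 0.114 for VAV2. ERBB2 further lost it without ABBV-744 500 nM replicate 2 or IFNγ + ABBV-744 500 nM replicate 3 (adjusted p = 0.0606 and 0.0588), and VAV2 without ABBV-744 500 nM replicate 3, IFNγ replicate 3 or IFNγ + ABBV-744 500 nM replicate 1 (adjusted p = 0.0514, 0.0629 and 0.0594).

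**Figure D4:**
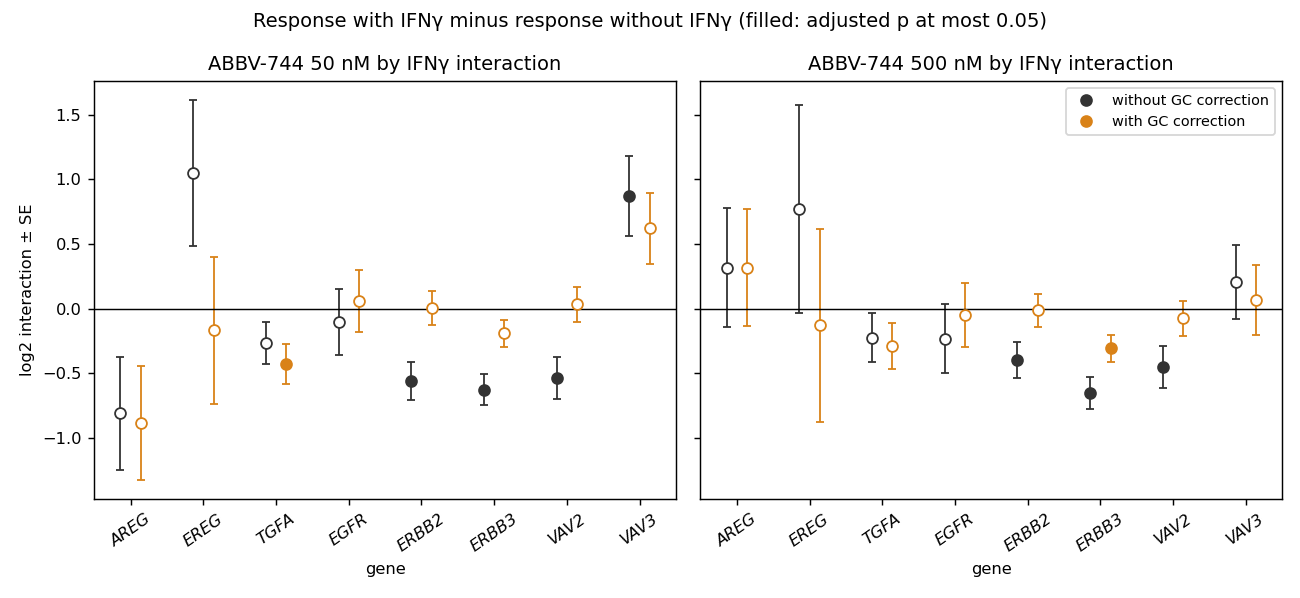
The y axis gives the log2 interaction ± SE, the response to ABBV-744 with IFNγ minus that without it, for 8 genes on the x axis and for 50 nM (left) and 500 nM (right). Black values are without and orange values with the GC correction, and filled symbols passed an adjusted p of 0.05. ERBB2 and VAV2 moved to about 0 with the correction, and ERBB3 at 500 nM stayed filled at -0.309.

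The other genes of the pathway, from lists of known components, are set beside the 19.6% of all genes that were lower and the 19.8% that were higher under ABBV-075. Of 5 genes for shedding the ligands, 1 was lower and 2 higher than in DMSO, and their median log2 fold change was 0.18. FURIN, a protease that activates the shedding enzymes, fell from 69.9 ± 2.45 to 30 ± 6.01 CPM (log2 fold change -1.25, SE 0.16, adjusted p = 0.000128). RHBDF1, a carrier of the main sheddase, rose from 4.89 ± 1.22 to 12.4 ± 0.328 CPM (1.31, SE 0.24, adjusted p = 0.00131). ADAM10, a sheddase, rose by 0.809 (adjusted p = 0.0124), or by 0.369 with the GC correction (adjusted p = 0.0169), and its ABBV-075 libraries spread widely, at 133 ± 53.7 CPM. Of 25 adaptors and relay kinases 4 were lower and 7 higher, and the median log2 fold change of the list was 0.18, against 0.026 for all genes. MAPK3, the kinase ERK1, fell from 28.3 ± 4.02 to 10.1 ± 1.05 CPM (-1.51, SE 0.19, adjusted p = 0.000108), and AKT2, a kinase downstream of PI3-kinase, fell by 0.836 on the log2 scale (adjusted p = 0.000877). PIK3CA, its catalytic subunit, rose by 0.845 (adjusted p = 0.0335), and by 0.346 with the GC correction, where it did not pass (adjusted p = 0.121).

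Among 15 tested feedback inhibitors of the receptors and of ERK signalling, 2 were lower and 4 higher under ABBV-075, and their median was 0.05. DUSP5, a phosphatase of ERK, fell from 7.07 ± 0.798 to 2.44 ± 0.864 CPM (log2 fold change -1.58, SE 0.32, adjusted p = 0.00233). ERRFI1, which inhibits EGFR directly, rose from 85.6 ± 2.90 to 152 ± 12.2 CPM (0.805, SE 0.12, adjusted p = 0.000273). SOCS4, linked to the turnover of EGFR, rose by 0.945 (adjusted p = 0.00331) and lost its call with the GC correction (0.479, adjusted p = 0.0913). Of 10 tested transcripts known to be induced by ERK, 3 were lower and 2 higher, with a median of -0.031. FOSL1, an AP-1 subunit, fell from 10.4 ± 0.677 to 2.72 ± 0.968 CPM (-1.97, SE 0.29, adjusted p = 0.000337), and ETV4, an ETS factor, from 186 ± 4.01 to 85.8 ± 9.54 CPM (-1.14, SE 0.12, adjusted p = 3.28e-05). EGR1, an early-response factor, moved the other way, from 6.61 ± 1.34 to 16.3 ± 2.04 CPM (1.26, SE 0.22, adjusted p = 0.000981).

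Under ABBV-744 500 nM fewer genes passed against DMSO over the whole table, 7.80% lower and 7.48% higher, and also in these lists: 0 of 5 shedding genes, 1 of 25 adaptors and relay kinases, 1 of 15 feedback inhibitors and 3 of 9 ERK-induced transcripts, with list medians between -0.22 and -0.04. CBL, which marks active receptors for degradation, rose by 0.451 (SE 0.12, adjusted p = 0.0122). EGR1 rose by 0.982 (SE 0.23, adjusted p = 0.00395) and ETV4 fell by 0.289 on the log2 scale (adjusted p = 0.0445), the same directions as under ABBV-075, with which it shares the DMSO libraries. PHLDA1 fell by 0.259 (adjusted p = 0.0393), or by 0.168 with the GC correction, where it did not pass (adjusted p = 0.081). IFNγ against DMSO called 0 genes of these 4 lists by edgeR, with 2 adaptors and 1 ERK-induced transcript at an unadjusted p under 0.05.

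**Figure D5:**
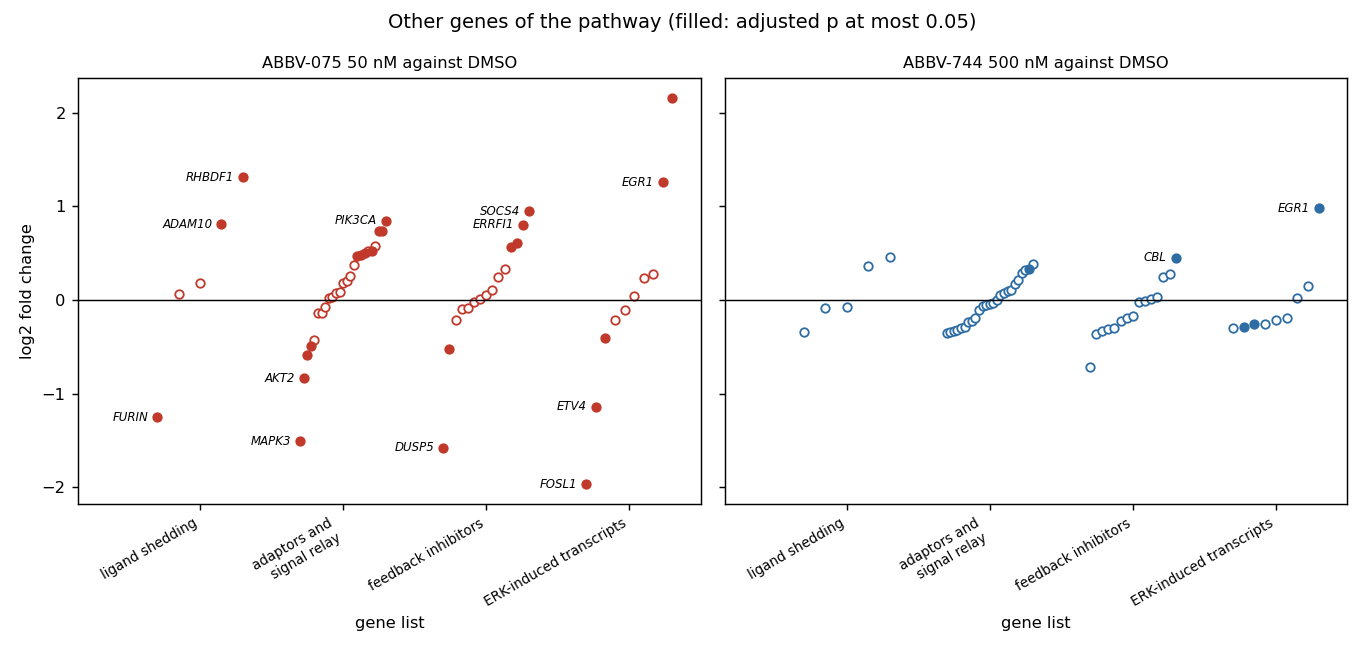
The y axis gives the log2 fold change of each tested gene of 4 pathway lists (x axis) for ABBV-075 50 nM (left) and ABBV-744 500 nM (right) against DMSO. Filled points passed an adjusted p of 0.05, and names are given for those the naming rule covers with a log2 fold change of at least 0.4 in size. The ABBV-075 values ran from FOSL1 at -1.97 to values above 0, and no more than 3 ABBV-744 points of any list were filled. Filled points with no name fell outside the naming rule or the size limit.

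The genes whose mean log2 CPM followed AREG most closely over the 8 groups, among 10048 compared, were C17orf100 (Pearson r = 0.992), MRPS5 (0.991), MEX3A (0.988), METTL21B (0.984) and XYLB (0.984). For VAV3, among 10047, they were AK4 (0.992), UMPS (0.983), SLC30A10 (0.983), NR1I2 (0.978) and COPA (0.977). For EGFR, which varied little, they were COBL (0.965), C10orf11 (0.959), GPER1 (0.954), RHBG (0.948) and PPP1R3D (0.947). These are the highest of 10047 or 10048 values over only 8 group means from shared libraries and are given as a description.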

How the data were processed

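RNA-seq of HepG2 cells was analysed from 24 deposited files of raw read counts, 8 groups of 3. Per the study's methods and the submitters' processing notes, ribosomal RNA was removed, libraries kept strand, and reads were trimmed (Trimmomatic 0.33) and aligned to GRCh38 (STAR 2.7.1). The annotation used for counting is not given in the sources used here. The authors' deposited counts are whole reads per gene symbol, not normalized. The column for the strand of the gene was used. Rows that name no gene (multimapping, outside genes, ambiguous) held 83.2% to 88.0% of reads and were left out. Depth was 2978982 to 4304103 counts on genes, with a median of 3462418.5.

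Genes were filtered with filterByExpr, scaled with TMM and fitted with edgeR 4.0.16 (glmQLFit and glmQLFTest, R 4.3.3) on the libraries compared, with 10 comparisons between groups and 3 interactions. P-values were Benjamini-Hochberg adjusted over all genes tested, and a gene passed at an adjusted p of at most 0.05. The SE is the log2 fold change over the square root of F. Log2 CPM for the likeness of genes used a prior count of 2. Lengths, GC content and positions came from GENCODE (GRCh38) and promoter windows from RefSeq (GRCh38.p14), for 23161 symbols matched directly and 1384 by synonym. The GC correction was a lowess offset (span 0.3) per library. The fits were tested on simulated data. The alternatives were RLE size factors, library size only, DESeq2 1.42.0, no filter, a minimum of 10 counts in each library, one fit of all 24, a replicate block, unstranded counts, the GC correction and each library left out. Some items are not reported here. Members and lists were chosen with earlier results of these data known. All members were named. Of each list, the 3 genes with the largest log2 fold changes among those averaging at least 20 counts were named where they passed in ABBV-075, ABBV-744 500 nM or IFNγ against DMSO, as were the 5 genes most like AREG, EGFR and VAV3.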

Additional observations from a re-analysis of the deposited data

Results flagged for a closer look

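For 4 of 8 tested members the log2 response to ABBV-744 50 nM differed between cells with and without IFNγ by the interaction test: ERBB2 (-0.56), ERBB3 (-0.63), VAV2 (-0.54) and VAV3 (0.87). For ABBV-744 500 nM the same test passed for 3 of 8, ERBB2 (-0.40), ERBB3 (-0.66) and VAV2 (-0.45). Over all genes, 26.5% had a lower interaction at 50 nM and 15.0% at 500 nM, and genes with the lowest G and C content had a median interaction of 0.87 at 50 nM and 0.63 at 500 nM. With the GC correction, ERBB3 at 500 nM was the only one of these 7 that passed. Groups of 3 libraries are too small for the check of single outlying libraries, which was not made.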

How the results depend on the processing

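The members past the test were counted again under 9 other settings and without each library. With the replicate number as a block, the count was 1 for ABBV-744 50 nM against DMSO (2 without the block) and 1 for ABBV-744 500 nM against 50 nM (0 without it), and it stayed within 1.5 times elsewhere. In ABBV-075 against DMSO the block gave 4 in place of 6, without TGFA (adjusted p = 0.1) and ERBB2 (adjusted p = 0.0526), and in ABBV-744 50 nM against DMSO ERBB2 lost its call (adjusted p = 0.0868). It added TGFA between the ABBV-744 doses (adjusted p = 0.0486) and between the inhibitors with IFNγ (adjusted p = 0.0493), and against IFNγ it added ERBB2 with ABBV-744 at 50 nM and 500 nM (adjusted p = 0.0482 and 0.0323) and VAV2 at 500 nM (adjusted p = 0.0187). Correlations of same-numbered libraries ran from -0.24 to 0.46. All 3 were above 0 in 4 of 10 comparisons, but in 0 comparisons were all 3 above 0.1, the minimum set for pairing. Between the ABBV-744 doses they were 0.35, 0.46 and 0.08, and at most 5 of 6 libraries of a comparison correlated best with their own number. The libraries were therefore taken to share only a number. Over all genes the block moved the calls between the ABBV-744 doses from 3 to 320. For ABBV-744 50 nM against DMSO, library size only, DESeq2, all 24 libraries and the GC correction each gave 1 in place of 2. DESeq2 gave 1 in place of 2 for ABBV-744 500 nM against DMSO. For IFNγ against DMSO, library size only and no filter gave 1 in place of 0. A minimum of 10 counts in every library, which removes AREG and VAV3, gave 3 in place of 5 for ABBV-075 added to IFNγ and 0 in place of 2 for ABBV-075 against ABBV-744 with IFNγ, and all 24 libraries gave 4 for the latter. The GC correction gave 1 for both ABBV-744 by IFNγ interactions (4 and 3 without it), and library size only and DESeq2 gave 1 for the one at 500 nM. Values of 0.00494 for ERBB2 and 0.0326 for VAV2 in the interaction at 50 nM were reversals, both with the GC correction. A change of sign of a difference that passed in neither fit was not counted as one.

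Leaving out each library gave 3 to 5 members for ABBV-075 against DMSO (3 without DMSO replicate 3), 0 to 2 for ABBV-744 50 nM (0 without DMSO replicate 2) and 1 to 3 for ABBV-744 500 nM against DMSO, 0 to 1 for IFNγ against DMSO, 3 to 5 for ABBV-075 against ABBV-744 and 1 to 2 for the same with IFNγ. Against IFNγ it gave 5 to 6 for ABBV-075, 2 to 3 for ABBV-744 50 nM and 3 to 5 for 500 nM, and for the ABBV-744 interactions 3 to 5 at 50 nM and 1 to 3 at 500 nM. Of 1569 values under an alternative, 1452 kept their side of the threshold with any change of sign within 1 SE or, for counts of members, stayed within 1.5 times. Library size in place of TMM moved the median of all genes by over 0.1 in ABBV-744 50 nM against DMSO (0.00 to -0.10), in ABBV-075 against ABBV-744 with IFNγ (0.01 to -0.12) and in the ABBV-744 50 nM interaction (-0.14 to 0.04). With the prior count of 0.5, 4 of 5 genes most like AREG, 5 of 5 like EGFR and 4 of 5 like VAV3 were the same. Depth limits HBEGF and EREG, which had at most 8 and 19 counts in a library.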
